A study of Homo sapiens with 9 samples.

Results

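The alpha-fucosyltransferase genes FUT1, FUT2, FUT3, FUT4, FUT5, FUT6 and FUT8 and the blood-group gene ABO were followed across T84 cells with and without interferon gamma and untreated Caco-2 cells. All probe sets whose RefSeq identifier mapped to one of these 8 genes were taken, which gave 9 of the 1259 probe sets on the array, 1 for each gene and 2 for FUT3. T84 and Caco-2 are human colon carcinoma-derived epithelial cell lines, each a single line, so a difference between them belongs to these 2 lines and not to a tissue. Treated T84 cells received interferon gamma at 100 U/ml for 24 hours (3 arrays), and for them the labels state neither passage nor confluence. Untreated T84 cells were at passage 68 (3 arrays) and untreated Caco-2 cells at passage 37 (3 arrays), both about 90% confluent in 6-well plates. Total RNA was read on 9 single-colour arrays for the expression of glycosylation genes, and the study looked for enzymes behind a sialylated CD44 epitope that interferon gamma raises in T84 and that Caco-2 lacks. Replicates are numbered with no word on separate cultures, so each p-value rests on a spread between samples that may be purely technical.

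Fucosyltransferases move fucose from GDP-fucose onto growing glycans in the Golgi. FUT1 and FUT2 add it in alpha-1,2 linkage to terminal galactose and make the H antigen, which the ABO enzyme turns into A or B antigen. FUT3, FUT4, FUT5 and FUT6 add it to the N-acetylglucosamine below, in alpha-1,3 or, for FUT3 above all, also alpha-1,4 linkage, and make the Lewis antigens, whose sialylated forms are selectin ligands and tumour markers of the colon. FUT8 adds alpha-1,6 fucose to the innermost N-acetylglucosamine of N-glycans. In the RefSeq annotation FUT6, FUT3 and FUT5 are direct protein-coding neighbours on chromosome 19, and FUT2 and FUT1 lie on the same chromosome with other genes between them. FUT4 is on chromosome 11, FUT8 on chromosome 14 and ABO on chromosome 9, where the assembly's copy of ABO is annotated as a transcribed pseudogene.

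Within T84 cells, FUT4 was the 1 probe set of the 9 past the threshold, 1.47-fold higher after interferon gamma, and none was lower (adjusted p below 0.05 in limma's moderated test over all probe sets). Over the whole array 10.2% of probe sets passed in this comparison, 4.37% as higher and 5.8% as lower, so 1 of 9 lies near the background. Between the lines FUT3, the Lewis enzyme gene, had the largest difference of the 9, more than FUT2 and FUT1, and FUT4 was the 1 below Caco-2 in untreated T84. Treated T84 had 6 of 9 probe sets higher than Caco-2 and none lower, while 45.6% of the array passed, 19.4% as higher and 26.2% as lower. Untreated T84 had 6 higher and 1 lower, while 43.7% of the array passed, 19.5% as higher and 24.2% as lower. Groups did not overlap for 6 of the 9 in either comparison with Caco-2, while this held for 53.5% of the array with treated and 49.6% with untreated T84. The median log2 fold change of the 9 was -0.13 between treated and untreated T84, 0.25 between treated T84 and Caco-2, and 0.38 between untreated T84 and Caco-2, against -0.01, 0.02 and 0.02 over all probe sets. The comparisons with Caco-2 share the Caco-2 arrays. RNA of whole cultures was measured, so fewer expressing cells and less RNA per cell cannot be told apart.

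**Figure D1:**
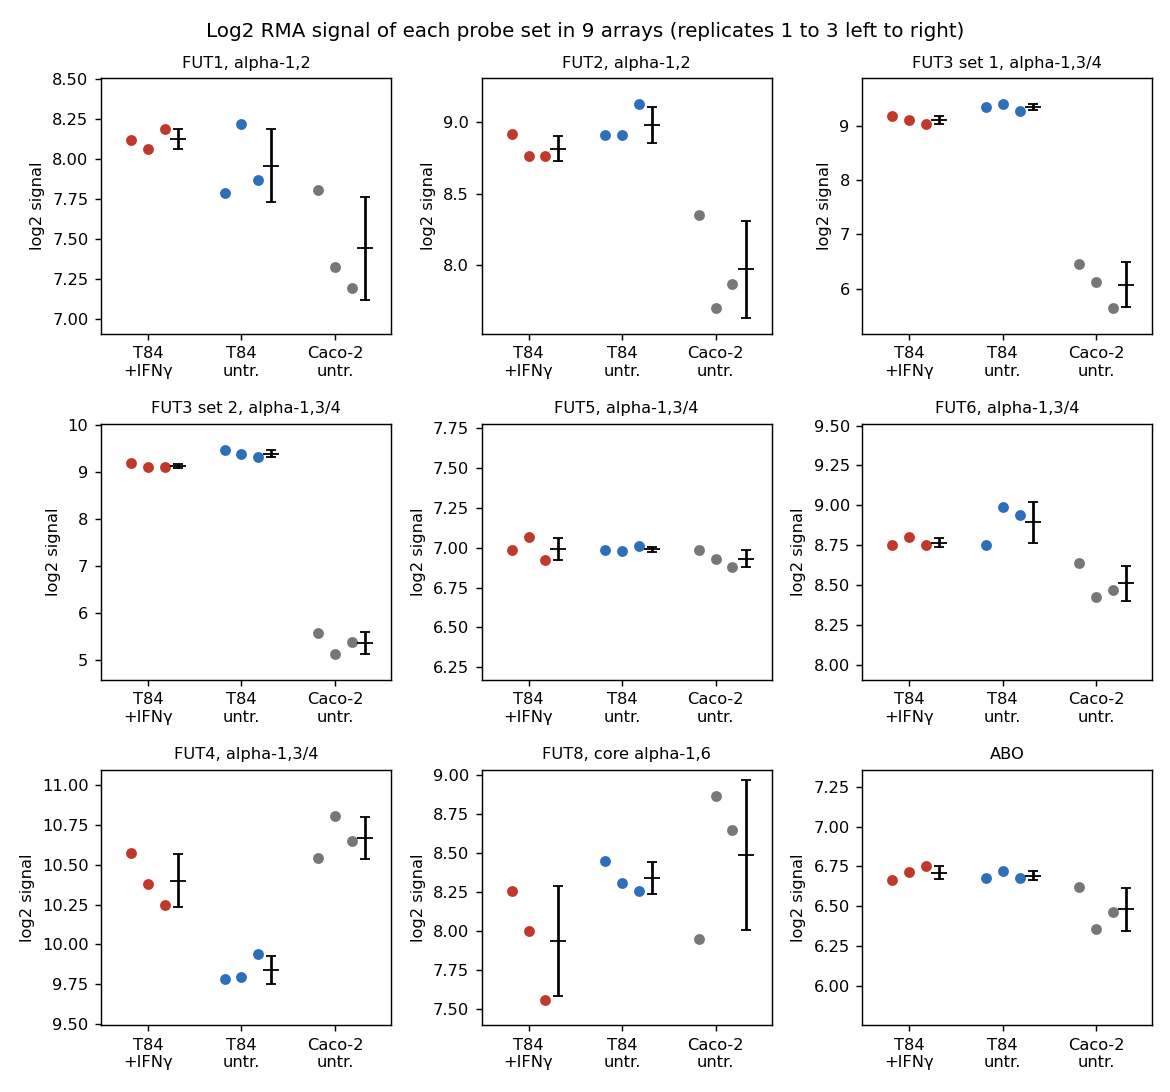
Log2 signal (RMA) of each probe set in every array, with treated T84 in red, untreated T84 in blue and Caco-2 in grey. Points are replicates 1 to 3 from left to right, bars are mean ± SD (n = 3), and panels differ in the range of the vertical axis. FUT3 set 1 lies between 9.04 and 9.40 in T84 and between 5.64 and 6.46 in Caco-2, while FUT4 lies between 10.25 and 10.57 in treated T84 and between 9.78 and 9.94 in untreated T84.

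The treatment and the lines were checked first. Of 7 measured interferon gamma response genes 5 rose in treated T84, namely the chemokine genes CXCL9 (log2 fold change 6.12), CXCL10 (5.11) and CXCL11 (4.04), the invariant chain gene CD74 (3.54) and the adhesion gene ICAM1 (3.17). Of 15 listed epithelial markers 4 were measured (LGALS4, MUC1, MUC2 and MUC13), and all 4 were higher in T84 than in Caco-2. Their mean log2 signal ran from 10.69 to 10.71 in treated T84, from 10.36 to 10.41 in untreated T84 and from 7.87 to 8.02 in Caco-2. EPCAM, CDH1, the keratins, villin and the leukocyte gene PTPRC were not analysed here. The mean log2 signal of 7 measured leukocyte markers ran from 5.56 to 5.63 in treated T84, from 5.55 to 5.63 in untreated T84 and from 5.41 to 5.56 in Caco-2. That of 10 fibroblast and endothelial markers ran from 4.92 to 4.98, from 4.92 to 4.95 and from 5.24 to 5.44 in the same groups, and 5 of these 10 were below Caco-2 in both T84 groups, PECAM1, PDGFRA, PDGFRB, BGN and LUM. Of the 7 leukocyte markers CD22 alone passed, as higher than in Caco-2. Its log2 fold change was 0.22 in treated T84 (adjusted p = 0.0408 by limma) and 0.34 in untreated T84 (adjusted p = 0.00603). These calls remained in 2 of 9 and 9 of 9 fits that each left out a single array. Over the whole array 26.2% and 24.2% of probe sets were lower than in Caco-2 in treated and untreated T84, and 19.4% and 19.5% higher. The part of these markers in the results was not tested. The deposited values carry no detection calls, so a level near background cannot be told from a low one. Array medians lay between 6.7 and 6.8.

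Promoter sequences of the genes with the clearest differences are shown to set FUT4, which changed with interferon gamma, beside FUT3 and FUT2, which differed between the lines. RefSeq promoters (GRCh38.p14) were at hand for 6 of the 8 genes, and the 250 bases before a start were used. Capitals mark the GC box GGGCGG on either strand.

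FUT4: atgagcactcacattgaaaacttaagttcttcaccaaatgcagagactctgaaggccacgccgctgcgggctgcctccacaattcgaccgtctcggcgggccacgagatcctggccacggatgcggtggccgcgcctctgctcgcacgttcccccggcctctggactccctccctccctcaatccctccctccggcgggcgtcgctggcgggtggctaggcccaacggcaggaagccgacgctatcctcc
FUT3: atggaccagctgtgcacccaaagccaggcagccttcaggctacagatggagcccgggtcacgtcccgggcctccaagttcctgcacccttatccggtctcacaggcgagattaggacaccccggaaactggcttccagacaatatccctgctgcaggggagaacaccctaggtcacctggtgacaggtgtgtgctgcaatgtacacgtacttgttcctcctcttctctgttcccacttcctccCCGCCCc
FUT2: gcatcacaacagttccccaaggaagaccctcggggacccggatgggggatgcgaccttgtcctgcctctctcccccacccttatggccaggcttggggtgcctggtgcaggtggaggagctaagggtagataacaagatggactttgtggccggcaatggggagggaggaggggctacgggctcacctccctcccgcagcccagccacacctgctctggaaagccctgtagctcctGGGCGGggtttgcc

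The FUT4 window is chr11:94543671-94543920 on the plus strand, the FUT3 window chr19:5851450-5851699 on the minus strand and the FUT2 window chr19:48695721-48695970 on the plus strand. The core of the interferon-stimulated response element, a repeat of GAAA with a gap of any 2 bases, occurs on either strand in 3.02% of 35116 such windows of all genes. It does not occur in the windows of the 6 genes, FUT4 included, counting every annotated start of FUT1 and FUT8. The GC box occurs in 42.6% of all windows, and in those of FUT3 (from -7 to -2 before the start) and FUT2 (from -14 to -9) but not of FUT4. FUT1 and FUT8 hold it before 1 of their starts each. The absence of these letters from 250 bases says nothing about binding of a factor there or elsewhere.

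FUT1, which makes the H antigen of red cells and of several epithelia, had log2 signals of 8.12, 8.07 and 8.19 in treated T84, 7.79, 8.22 and 7.87 in untreated T84, and 7.81, 7.32 and 7.19 in Caco-2. Treated T84 lay above every Caco-2 array, while untreated T84 replicate 1 lay below Caco-2 replicate 1. The log2 fold change was 0.68 ± 0.17 (SE) between treated T84 and Caco-2 (1.61-fold, 95% confidence interval 1.23 to 2.10, adjusted p = 0.00905 by limma, n = 3 per group). Between untreated T84 and Caco-2 it was 0.52 ± 0.17 (adjusted p = 0.0345), and this call remained in 2 of the 9 fits that each left out a single array, those without untreated T84 replicate 1 (adjusted p = 0.0376) and without Caco-2 replicate 1 (0.002). It was lost without each of the other arrays, at adjusted p values up to 0.116. Treated and untreated T84 did not differ beyond their spread (0.17, interval -0.22 to 0.55).

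FUT2, the secretor gene, makes the H antigen of mucosal and secreted glycans, and its probe set is shared among transcripts. Log2 signals were 8.92, 8.76 and 8.76 in treated T84, 8.92, 8.91 and 9.13 in untreated T84, and 8.35, 7.70 and 7.86 in Caco-2. Every T84 array lay above every Caco-2 array, and treated and untreated T84 overlapped. FUT2 was 1.80-fold higher in treated T84 than in Caco-2 cells (1.4 to 2.30, adjusted p = 0.00192 by limma, n = 3 per group). It was 2.02-fold higher in untreated T84 than in Caco-2 cells (1.58 to 2.59, adjusted p = 0.000723). Both calls remained in 9 of 9 fits that left out an array. The log2 fold change between treated and untreated T84 was -0.17 (interval -0.52 to 0.19, adjusted p = 0.683).

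FUT3 encodes the Lewis fucosyltransferase, which completes Lewis a, Lewis b and sialyl Lewis a, the CA19-9 antigen. Its first probe set carries no suffix for sharing, and its log2 signals were 9.19, 9.12 and 9.04 in treated T84, 9.35, 9.40 and 9.28 in untreated T84, and 6.46, 6.12 and 5.64 in Caco-2. Its second probe set carries the suffix for possible cross-hybridisation, and its signals were 9.18, 9.11 and 9.11 in treated T84, 9.47, 9.39 and 9.32 in untreated T84, and 5.57, 5.13 and 5.39 in Caco-2. In both probe sets the 3 groups did not overlap, with untreated T84 highest and Caco-2 lowest. By the first probe set FUT3 was 8.23-fold higher in treated T84 than in Caco-2 cells (6.22 to 10.9, adjusted p = 1.57e-06 by limma, n = 3 per group), and by the second 13.7-fold (11.6 to 16.1, adjusted p = 1.31e-08). In untreated T84 the difference from Caco-2 was 9.66-fold by the first (7.30 to 12.8, adjusted p = 1.21e-06) and 16.4-fold by the second (13.9 to 19.3, adjusted p = 1.06e-08). The probe sets gave 1 direction and differed in size, a log2 fold change of 3.27 ± 0.18 against 4.03 ± 0.10 (SE) between untreated T84 and Caco-2, and this difference was not tested.

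Against untreated T84, treated T84 had log2 fold changes of FUT3 of -0.23 (interval -0.63 to 0.17, adjusted p = 0.6 by limma, n = 3 per group) and -0.26 (-0.50 to -0.02, adjusted p = 0.206). Neither passed the threshold, although the groups did not overlap in either probe set. Of the 9 probe sets 3 had treated and untreated T84 groups that did not overlap, beside 27.5% of all probe sets. With the spread taken from the 6 T84 arrays alone both FUT3 probe sets passed as lower, at adjusted p values of 0.0453 and 0.0234. The Caco-2 arrays of the first probe set had an SD of 0.41, while those of treated and untreated T84 had SDs of 0.08 and 0.06.

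FUT5 and FUT6 are close relatives of FUT3 in the same cluster. FUT5 had log2 signals of 6.98, 7.07 and 6.93 in treated T84, 6.98, 6.98 and 7.01 in untreated T84, and 6.98, 6.93 and 6.88 in Caco-2. The 3 groups overlapped, and no comparison passed. Its intervals were narrow, with log2 fold changes between -0.11 and 0.12 for treated against untreated T84, between -0.06 and 0.18 for treated T84 against Caco-2 and between -0.06 and 0.17 for untreated T84 against Caco-2. A fold difference of FUT5 signal above 1.13 between any 2 groups thus lies outside these intervals.

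FUT6, which makes Lewis x type structures and fucosylates plasma glycoproteins in liver, was read by a probe set that can cross-hybridise. Its log2 signals were 8.75, 8.80 and 8.75 in treated T84, 8.75, 8.99 and 8.94 in untreated T84, and 8.64, 8.43 and 8.47 in Caco-2. All T84 arrays lay above all Caco-2 arrays by small margins. FUT6 was 1.19-fold higher in treated T84 than in Caco-2 cells (1.05 to 1.35, adjusted p = 0.0263 by limma, n = 3 per group), a call lost without any treated T84 array, without Caco-2 replicate 2 or without Caco-2 replicate 3 (adjusted p up to 0.0903). It was 1.30-fold higher in untreated T84 than in Caco-2 cells (1.15 to 1.48, adjusted p = 0.00376). FUT3 signal differed between the lines in the same direction and by more, and its part in the FUT6 difference was not tested.

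FUT4 encodes the myeloid type alpha-1,3-fucosyltransferase, which makes Lewis x (CD15) on lactosamine chains, and its promoter window is the one printed with no GC box. Its log2 signals were 10.57, 10.38 and 10.25 in treated T84, 9.78, 9.79 and 9.94 in untreated T84, and 10.54, 10.80 and 10.65 in Caco-2. Every treated T84 array lay above every untreated T84 array, and untreated T84 lay below every Caco-2 array. FUT4 rose in treated against untreated T84 by a log2 fold change of 0.56 ± 0.10 (SE, adjusted p = 0.00797 by limma, n = 3 per group), or 1.47-fold (95% confidence interval 1.26 to 1.73). The call remained in 9 of 9 fits without a single array, at adjusted p values from 0.00562 to 0.0367 and log2 fold changes from 0.47 to 0.64. Untreated T84 lay below Caco-2, at a log2 fold change of -0.83 ± 0.10 (1.77-fold, 1.51 to 2.08, adjusted p = 0.000174).

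Treated T84 and Caco-2 differed in FUT4 by -0.27 (interval -0.49 to -0.04, adjusted p = 0.0595 by limma, n = 3 per group), which did not pass. That comparison passed without treated replicate 1 (-0.35, adjusted p = 0.0188) or without Caco-2 replicate 1 (-0.33, adjusted p = 0.0319). It also passed with quantile scaling (-0.37, adjusted p = 0.00746) and with array weights (-0.38, adjusted p = 0.00128), while with each array centred on ribosomal protein probe sets it was 0.01. By group means the order was Caco-2, treated T84 and untreated T84, and whether the first pair passed depended on these settings.

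**Figure D2:**
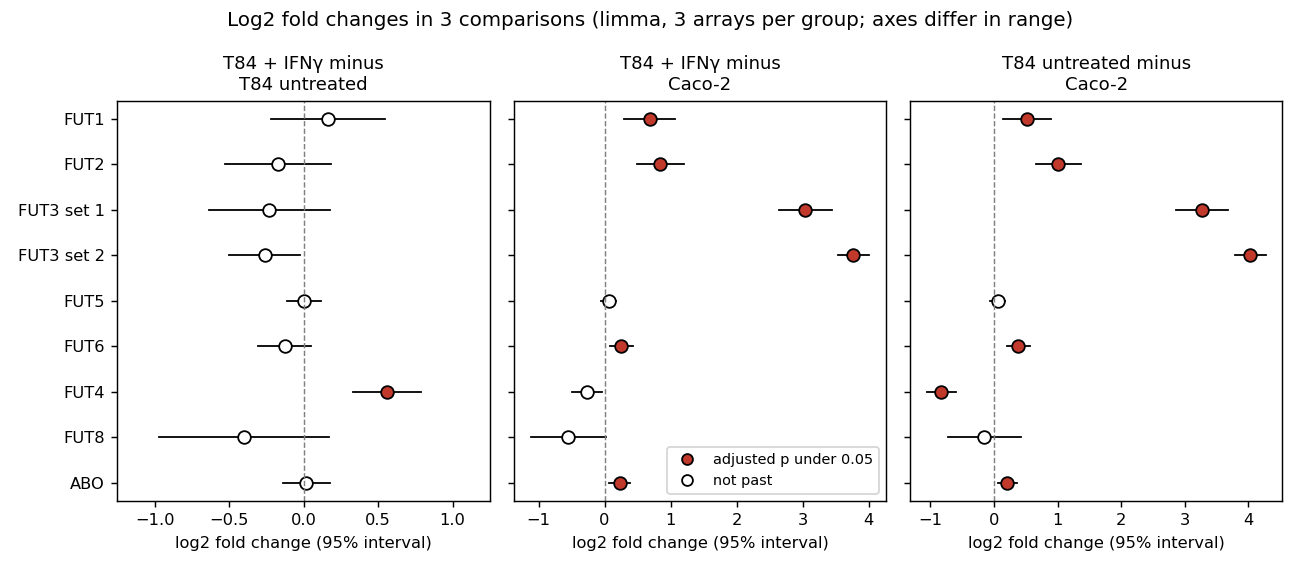
Log2 fold changes of the 9 probe sets in 3 comparisons, with 95% confidence intervals from limma (n = 3 arrays per group), and filled points for an adjusted p below 0.05. FUT4 is the 1 filled point between treated and untreated T84 (0.56), and FUT3 reaches 3.77 and 4.03 against Caco-2 in its second probe set.

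FUT8, the core fucosyltransferase, was read by a probe set shared among transcripts of the gene. Its log2 signals were 8.25, 8.0 and 7.56 in treated T84, 8.45, 8.30 and 8.25 in untreated T84, and 7.95, 8.87 and 8.65 in Caco-2. The arrays were far apart in treated T84 and in Caco-2 and closer in untreated T84, with SDs of 0.35 for treated T84, 0.10 for untreated T84 and 0.48 for Caco-2. No comparison passed, and the log2 fold changes were -0.40 between treated and untreated T84 (interval -0.97 to 0.17), -0.55 between treated T84 and Caco-2 (-1.12 to 0.02) and -0.15 between untreated T84 and Caco-2 (-0.72 to 0.42). The interval for treated T84 against Caco-2 thus runs from 2.17-fold lower to about equal. Without Caco-2 replicate 1, treated T84 was lower than Caco-2 at -0.82 ± 0.19 (SE, adjusted p = 0.00679 by limma). This was the 1 fit that passed of 9 without a single array. Over the 9 the log2 fold change ran from -0.82 to -0.36, with adjusted p up to 0.305.

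ABO encodes the glycosyltransferase that adds N-acetylgalactosamine or galactose to the H antigen. Its log2 signals were 6.67, 6.72 and 6.75 in treated T84, 6.68, 6.72 and 6.68 in untreated T84, and 6.62, 6.36 and 6.46 in Caco-2. The T84 groups overlapped each other, and both lay above all Caco-2 arrays. ABO was 1.17-fold higher in treated T84 than in Caco-2 cells (1.05 to 1.31, adjusted p = 0.0223 by limma, n = 3 per group) and 1.16-fold higher in untreated T84 than in Caco-2 cells (1.04 to 1.29, adjusted p = 0.0339). The first call was lost without treated replicate 2 or 3 or Caco-2 replicate 2 or 3 (adjusted p up to 0.0727). The second remained without treated replicate 1, treated replicate 3 or Caco-2 replicate 1 and was lost without each of the other arrays (adjusted p up to 0.106). Treated and untreated T84 differed by 0.02 (interval -0.14 to 0.17), and the probe set does not tell A, B and O alleles apart.

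The Caco-2 arrays varied more than the T84 arrays for most of the 9 probe sets. The 9 probe sets had a median SD of 0.07 for treated T84, 0.09 for untreated T84 and 0.23 for Caco-2, beside 0.06, 0.07 and 0.10 over all probe sets. The SD was largest in Caco-2 for 6 of the 9, beside 55.5% of all probe sets. Caco-2 replicate 1 lay nearest to the untreated T84 mean of the Caco-2 arrays in 8 of the 9, beside 41.0% of all probe sets. It was 0.55 above the mean of the other Caco-2 arrays for FUT1, 0.57 for FUT2 and 0.58 for the first FUT3 probe set, and lower by -0.81 for FUT8. Without this array the differences from Caco-2 were larger in size, which for most of the 9 follows from its place nearest to untreated T84. FUT1 then stood at a log2 fold change of 0.87 in treated T84 and 0.70 in untreated T84, and FUT2 at 1.04 and 1.20.

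Caco-2 replicate 1 deviated together with 2 further arrays. Treated T84 replicate 3, untreated T84 replicate 3 and Caco-2 replicate 1 deviated from their groups in a correlated way across all probe sets (r from 0.484 to 0.756). They were picked as the set, 1 array from each group, whose smallest pairwise r was highest, so these r values were selected for size. In each of the 3 arrays FUT8 was the lowest of its group, at -0.57, -0.13 and -0.81 from the mean of the other arrays. Both FUT3 probe sets, FUT4 and FUT5 were also the highest or lowest of their group in each of the 3, on differing sides. So was FUT2, level with replicate 2 in treated T84. The share of all probe sets with this trait was not counted. Without these 3 arrays, a check chosen after seeing the data, FUT8 was lower than in Caco-2 at -0.63 in treated T84 (adjusted p = 0.00619 by limma) and -0.38 in untreated T84 (adjusted p = 0.0445), with 2 arrays per group. This check takes the lowest FUT8 value out of every group, so these adjusted p values partly follow from the choice of arrays. The SE of FUT8 between treated and untreated T84 was 0.25 with all arrays and 0.12 in this check. FUT4 was higher in treated than in untreated T84 by 0.69 on the log2 scale in the fit without these 3 arrays (adjusted p = 0.00898 by limma). What sets these arrays apart was not tested.

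**Figure D3:**
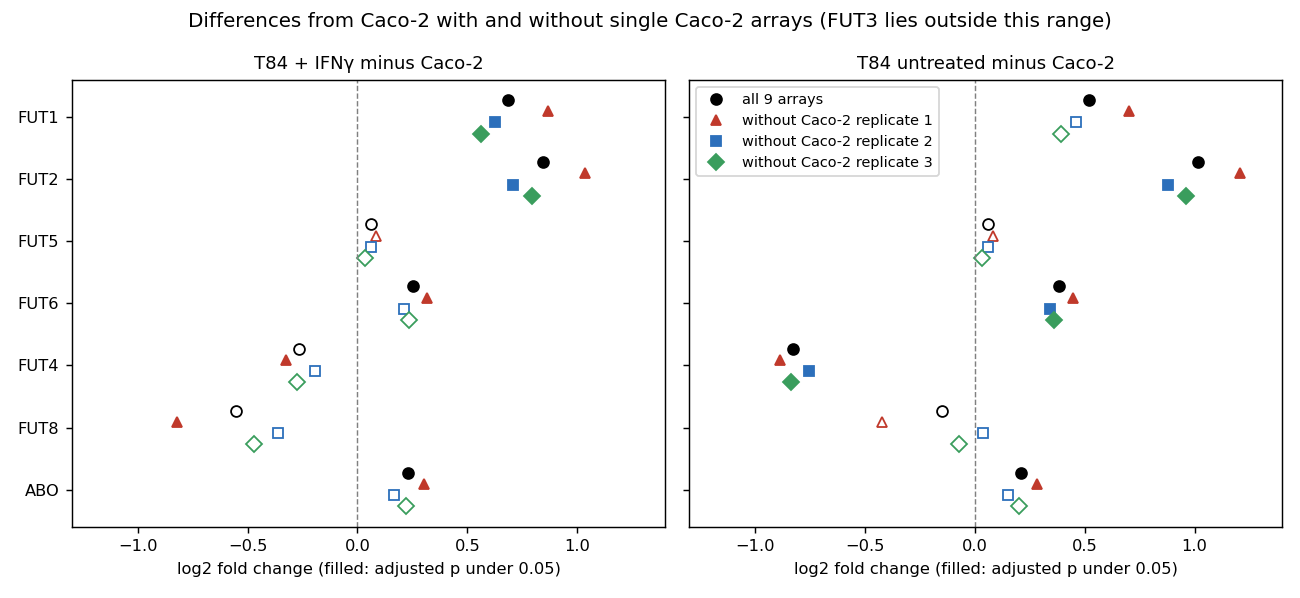
Log2 fold changes of 7 genes against Caco-2 with all 9 arrays and without each Caco-2 array in turn, filled where the limma adjusted p is below 0.05. FUT8 in treated T84 stands at -0.55 with all arrays and at -0.82 without Caco-2 replicate 1, while FUT4 in untreated T84 stays between -0.76 and -0.89.

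The scale of the array bears on the small differences between the lines. With each array centred on 50 ribosomal protein probe sets, the median log2 fold change of all probe sets moved from 0.02 to 0.29 for treated T84 against Caco-2 and from 0.02 to 0.21 for untreated T84. Calls of all probe sets in treated T84 against Caco-2 were then 795 higher and 227 lower, in place of 244 and 330, and those in untreated T84 675 and 232, in place of 245 and 305. FUT5 then passed as higher (0.33 and 0.25), values close to that shift of the median. FUT3 (3.31 and 3.47 by its first probe set) and FUT2 (1.12 and 1.21) stayed past the threshold, as did FUT4 in untreated T84 (-0.63).

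The genes whose pattern lay nearest to a called difference of at least 1 log2 unit were sought by Euclidean distance over the 9 arrays, each probe set set to its own mean. For the first FUT3 probe set they were CHST7, a sulfotransferase gene (distance 0.648), LGALS3BP, the galectin-3 binding protein gene (0.756), and FGF13 (0.79). For the second they were the sialyltransferase gene ST6GALNAC1 (0.563), the interferon-induced membrane protein gene IFITM1 (0.581) and the stress cytokine gene GDF15 (0.713). For FUT2 they were 2 probe sets of the platelet chemokine gene PF4 (0.334 and 0.338), 1 of which can cross-hybridise, and the chemokine gene CCL15 (0.415). A distance of 0.648 over 9 arrays is a root mean square difference of 0.216 log2 units per array. The order is a description and carries no test.

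The other fucosyltransferase genes did not pass within T84, with 0 of 4 measured past the threshold, beside 10.2% of the array. FUT7, which makes sialyl Lewis x in leukocytes, had a log2 signal of 6.40 ± 0.06 for treated T84, 6.37 ± 0.07 for untreated T84 and 6.39 ± 0.07 for Caco-2 (SD, n = 3 each). FUT9, which makes Lewis x in brain, stood at 3.87 ± 0.07, 3.87 ± 0.04 and 3.79 ± 0.07 in the same groups. Neither passed in any comparison. POFUT1, which fucosylates EGF repeats such as those of Notch, and POFUT2, which fucosylates thrombospondin repeats, were lower than in Caco-2 in treated T84 (-0.48 ± 0.07 and -0.85 ± 0.15, SE) and in untreated T84 (-0.25 ± 0.07 and -0.65 ± 0.15). The POFUT1 call in untreated T84 was lost without untreated T84 replicate 2, Caco-2 replicate 1 or Caco-2 replicate 2 (adjusted p up to 0.0919), and with ribosomal centring it was lost (-0.05).

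Of 6 listed genes of GDP-fucose supply 4 were measured. GMDS and GFUS were higher than in Caco-2 in treated and in untreated T84, and none of the 4 was lower. Over the array 19.4% and 19.5% of probe sets were higher, and 45.6% and 43.7% passed in either direction. With 4 genes the count is not read further. GMDS, the dehydratase that starts GDP-fucose synthesis from GDP-mannose, stood 2.29-fold above Caco-2 in treated T84 and 2.07-fold above it in untreated T84 (adjusted p = 8.32e-06 and 2.3e-05 by limma, n = 3 per group). GFUS, which completes that route, was 1.80-fold and 1.43-fold higher (adjusted p = 0.000164 and 0.00358). FPGT of the salvage route and the Golgi GDP-fucose transporter gene SLC35C1 did not pass in any comparison. Within T84 none of the 4 passed, beside 10.2% of the array. GFUS had a log2 fold change there of 0.34 ± 0.10 (SE, adjusted p = 0.095) that passed with ribosomal centring. FUCA1, the lysosomal fucosidase gene that removes fucose, fell in treated T84 to 9.02 ± 0.04, against 9.70 ± 0.15 in untreated T84 (SD, n = 3 each, adjusted p = 0.00502 by limma).

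The chains that carry the fucose are built by galactosyl- and N-acetylglucosaminyltransferases. Of 17 listed genes of these enzyme classes none passed within T84, beside 10.2% of the array. Not all of the 17 need act on such chains. Against Caco-2, 4 were higher and 3 lower in treated T84, beside 19.4% and 26.2% of the array. In untreated T84, 4 were higher and 2 lower, beside 19.5% and 24.2%. B3GALT5, which makes the type 1 chain that FUT3 turns into Lewis a, was 1.72-fold higher in treated and in untreated T84 (adjusted p = 0.000303 and 0.000343 by limma, n = 3 per group). B3GNT3, which extends core chains of mucin-type glycans, was 1.69-fold and 1.88-fold higher, and B3GALT4 stood at 0.40 and 0.55 on the log2 scale and B3GNT8 at 0.23 and 0.28. Both calls in treated T84 were lost without treated replicate 3, Caco-2 replicate 2 or Caco-2 replicate 3 (adjusted p up to 0.0615 for B3GALT4 and 0.0969 for B3GNT8), and that of B3GNT8 also with the replicate number as a block (0.0628). B4GALT1, which makes type 2 chains, was lower at -0.35 ± 0.10 in treated T84 and -0.37 ± 0.10 in untreated T84 (SE), and B4GALT5 at -0.36 ± 0.09 and -0.34 ± 0.09. The B4GALT1 calls remained in 4 of 9 and 7 of 9 fits without a single array and those of B4GALT5 in 8 of 9 and 7 of 9. All 4 were lost with ribosomal centring. That centring left 11 of the 17 genes higher in treated and 9 in untreated T84, beside 795 and 675 of all 1259 probe sets. These counts of higher genes lie near the shares of the array. None of the 17 was lower, beside 227 and 232 of all probe sets.

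Sialyl Lewis structures need an alpha-2,3 sialic acid below which the fucose is added. ST3GAL4 fell in treated T84 by 0.55 on the log2 scale against untreated T84 (adjusted p = 0.0139 by limma), a call that did not survive leaving out untreated T84 replicate 3 or either of treated replicates 1 and 2 (adjusted p up to 0.0589), and the other two of the list did not pass. ST3GAL6 stood 8.27-fold below Caco-2 in treated T84 and 9.01-fold below it in untreated T84, the opposite direction to FUT3. ST3GAL4 was 1.60-fold higher in untreated T84 than in Caco-2, and treated T84 differed from Caco-2 by 0.13 ± 0.11 (SE, adjusted p = 0.374). ST3GAL3 was lower in treated T84 at -0.24 ± 0.08, a call that remained in 3 of 9 fits without a single array and turned to 0.04 with ribosomal centring.

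Among 7 measured transferases of other blood-group related glycans, none passed within T84 and 3 were lower than in Caco-2 in each T84 group. Over the array 10.2% passed within T84, and 26.2% and 24.2% were lower than in Caco-2 in treated and untreated T84. GCNT2, which makes the branched I antigen, was 10.9-fold lower in treated and 11.9-fold lower in untreated T84. B3GALNT1, the globoside synthase gene, was 1.89-fold and 1.95-fold lower, and GBGT1 1.60-fold and 1.58-fold. The 9 genes of N-glycan trimming and branching around the FUT8 acceptor did not pass within T84. Against Caco-2, 6 were lower in treated and 4 in untreated T84, beside the same 26.2% and 24.2% of the array. None was higher, beside 19.4% and 19.5% of the array. MAN1A1, a Golgi mannosidase gene, was 6.18-fold lower in treated and 7.60-fold lower in untreated T84, and MAN2A1 was lower in treated T84 at -0.64 and stood at -0.40 in untreated T84, which did not pass. MGAT1, which adds the N-acetylglucosamine that FUT8 needs, stood at -0.39 ± 0.09 and -0.41 ± 0.09 (SE), and MGAT3, which adds the bisecting N-acetylglucosamine, was 1.96-fold and 1.47-fold lower. MGAT2 was also lower in both, at -0.36 ± 0.10 and -0.30 ± 0.10, calls that remained in 5 of 9 and 1 of 9 fits without a single array. With ribosomal centring 2 of the 9 genes were lower and 2 higher in treated T84, beside 227 lower and 795 higher of all 1259 probe sets. In untreated T84 3 were lower and 3 higher, beside 232 and 675 of all probe sets. Those higher were MAN1A2 and MAN1C1 in both T84 groups and MAN1B1 in untreated T84.

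**Figure D4:**
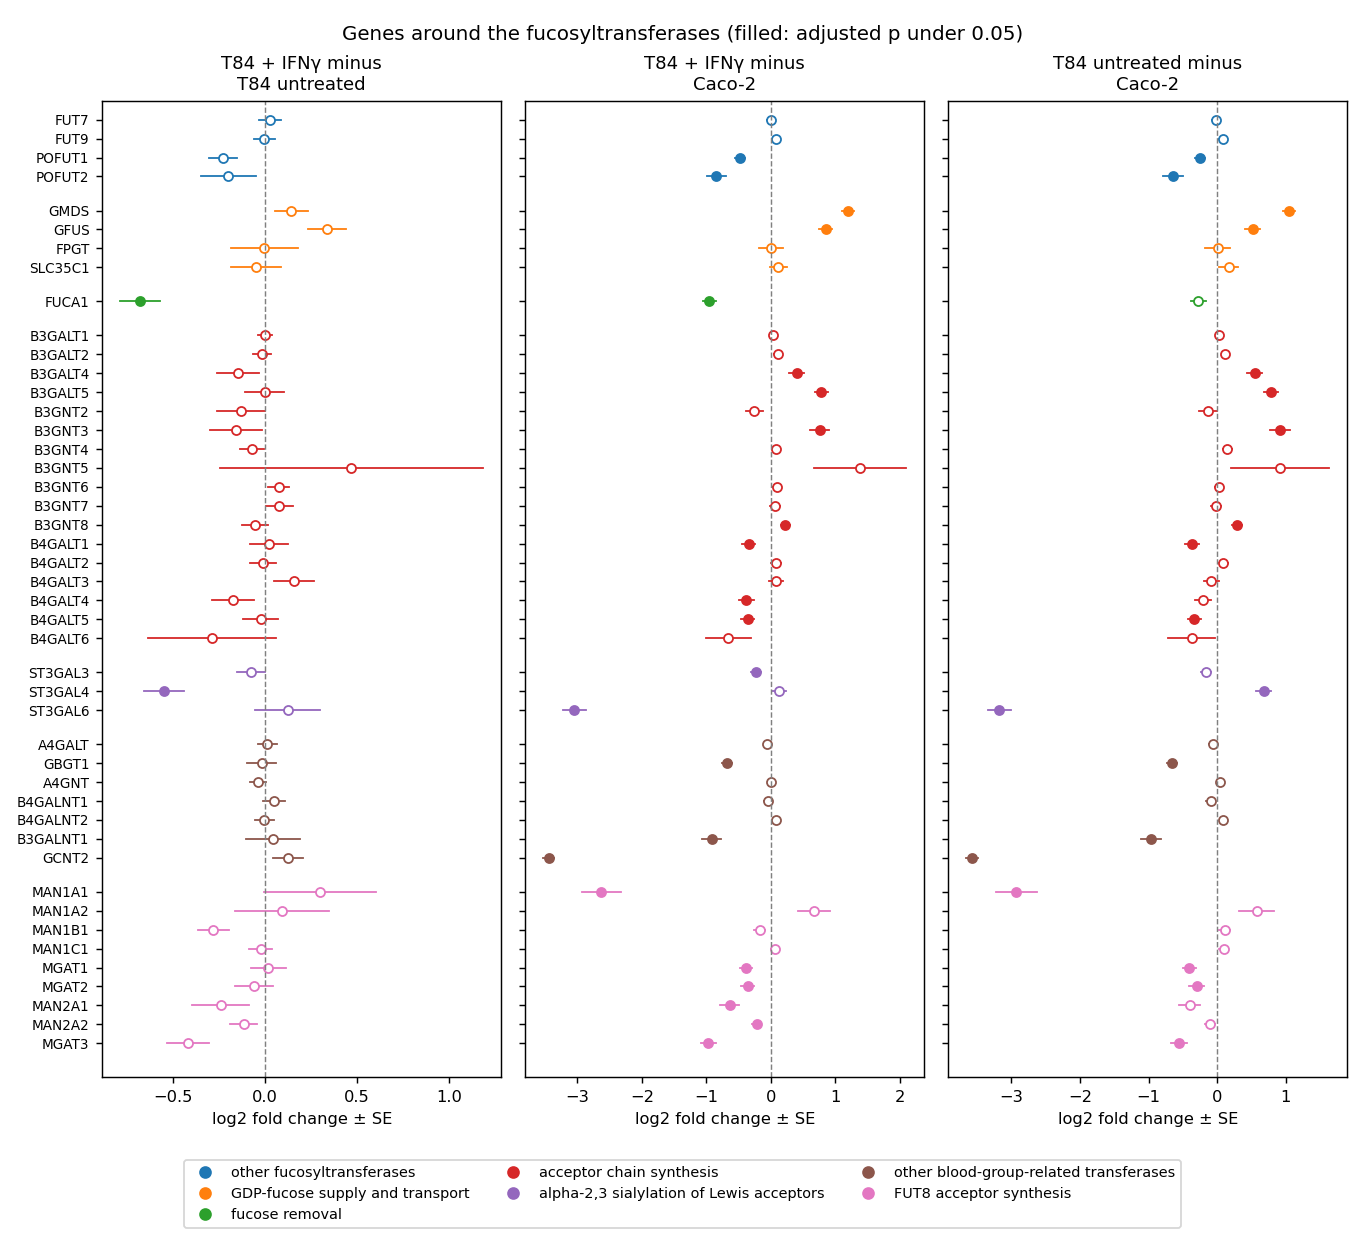
Log2 fold change ± SE (limma, n = 3 arrays per group) of the measured genes of 7 lists around fucosylation, in 3 comparisons with different axis ranges, filled where the adjusted p is below 0.05. FUCA1 (-0.68) and ST3GAL4 (-0.55) are the filled points between treated and untreated T84.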

How the data were processed

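Biotinylated cRNA from total RNA of 9 samples was read on arrays with the Affymetrix labelling procedure, per the labels' protocols. The deposited values are log2 signals per probe set, summarised and normalized by the authors with RMA, per the submitters' processing notes. Its version, the build and any filter: not given in the sources used here. No further scaling was applied.

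RefSeq identifiers without version gave 1 symbol to 1043 of 1259 probe sets, and 216 stayed unnamed but were tested. All groups entered a single limma fit (limma 3.58.1, R 4.3.3, 6 residual and 2.12 prior degrees of freedom). Benjamini-Hochberg adjustment ran over all 1259 probe sets, and calls are at 0.05. Intervals are at 95%. The fit was tested on simulated data for treated against untreated T84 only. It recovered 50.3% of log2 changes of 0.25 and 83.4% of those of 0.5, and 4.13% of its calls were false. The simulated noise was independent, with 1 SD per probe set for all groups. It therefore held neither a larger spread in Caco-2 nor arrays that deviate together. Of several probe sets of a listed gene the brightest on average was used.

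The members and lists were chosen with earlier results of these data known. Named genes were all 9 probe sets, up to 4 called genes of each list per comparison by adjusted p (CXCL11, LUM, B4GALT1, B4GALT5 in untreated T84, B3GNT8 and MGAT2 in treated T84, MAN1A2, MAN1B1, MAN1C1 and genes named as not passing were added after their values were seen), and the 3 nearest patterns. Alternatives covered the groups fitted, the replicate number as block, moderation, weights, scaling, dim probe sets, the threshold, the mean of probe sets, and single arrays left out. Figures were drawn with matplotlib 3.10.9. The number of arrays limits the precision.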

Additional observations from a re-analysis of the deposited data

How the results depend on the processing

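FUT4 stayed the 1 member higher in treated than in untreated T84 under every alternative run. The number of members lower there became 2 with the 6 T84 arrays alone and 1 with array weights (0 in the fit as described). Members below Caco-2 in treated T84 became 2 with array weights, 1 with quantile scaling, 1 without the 3 arrays that deviated together, and 0 to 2 without single arrays. Members below Caco-2 in untreated T84 became 2 without those 3 arrays. Over all probe sets, array weights gave 87 higher and 144 lower between treated and untreated T84 and 368 higher between treated T84 and Caco-2. A threshold of 0.01 left 36 lower between treated and untreated T84, and leaving out single arrays gave 40 to 108 (40, 48 and 44 without treated replicate 2, treated replicate 3 and untreated T84 replicate 3). Ribosomal centring gave 795 and 675 probe sets higher than in Caco-2 in treated and untreated T84. Signs turned for values near 0: FUT5 between treated and untreated T84 was -0.0195 with median scaling and between -0.0354 and 0.0351 without single arrays. ABO there was -0.0028 with median scaling, -0.0109 with quantile scaling, -0.0085 without the 3 arrays and -0.0013 to 0.0409 without single arrays. Against Caco-2, ribosomal centring turned FUT4 in treated T84 to 0.0054 and FUT8 in untreated T84 to 0.0431, and FUT8 in untreated T84 lay between -0.4212 and 0.039 without single arrays. With the replicate number as a block, 1 member was higher in treated than in untreated T84, and 4 members were higher than in Caco-2 in treated T84 (FUT6 and ABO lost) and 4 higher and 1 lower in untreated T84 (FUT1 and ABO lost). Deviations of same-numbered arrays correlated from -0.643 to 0.561 over all pairs of groups. Between treated and untreated T84 they correlated at 0.386, -0.024 and 0.561 for replicates 1, 2 and 3. Whether same-numbered arrays share more than a number was not tested. Of all alternative values of single members, 510 kept direction and side of the threshold, 33 lost the call, 13 gained one and 11 changed sign. The causes were not tested.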
